A study of Mus musculus with 2 samples.

Results

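Iron uptake, storage and sensing genes were examined in 2 arrays of sorted CD3+CD4+ T cells from the pancreatic lymph nodes (PLN), 1 for treatment with nondepleting anti-CD4 (ND αCD4; the antibody YTS177) and 1 for treatment with isotype control Ab (the antibody 2A3). The 9 genes, of 19938 with a probe set that carries a single gene symbol, were chosen by name as members of the transferrin receptor, ferritin, iron transport and iron regulatory protein families. They were put together with the array values already known, and for each gene the probe set with the highest mean of both arrays was used. Their values below are therefore a description and carry no test. Both pools came from BDC mice, NOD animals with transgenes for the α and β chains of a T cell receptor against pancreatic β cells, and most of their CD4+ T cells share that specificity. The labels give an age of 8 weeks, 1 mg of antibody and an interval of 48 hours. The methods give a larger dose for 2A3 than for YTS177, so equal doses are not certain. They also state that the lymph nodes of several mice were pooled before the sort. With 1 array per condition there was no replicate check, and a difference between conditions cannot be told apart from one between the pools. The pools are called the control pool and the treated pool below. Where a gene has a pair of values, the first is its log2 signal in the control pool and the second that in the treated pool.

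Iron enters a T cell mainly when transferrin, its carrier in plasma, binds the transferrin receptor and is taken into an endosome, from where the metal is pumped to the cytosol. It is then stored in ferritin, handed to mitochondria for heme and iron-sulfur clusters, or used by enzymes such as ribonucleotide reductase that dividing cells need. Iron regulatory proteins sense the supply: when iron is scarce they bind stem-loops called iron-responsive elements (IRE) in mRNA, which protects the transferrin receptor transcript and blocks translation of ferritin. The transferrin receptor, CD71, is widely used as a marker of activated T cells.

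The deposited log2 values spanned 2.52 to 14.7 and had a median of 8.15 in each array after rounding. Their precision is limited by there being 2 arrays. Background was taken from 1210 probe sets of olfactory and vomeronasal receptors, genes that T cells are not known to use, as the 95th percentile of each array (7.64 in the control pool and 7.56 in the treated pool). Detected genes were those above background in 1 array or both, 13222 in all. All 9 iron genes were above that level in both arrays. The sorted cells carried the T cell genes of their gate, with *Cd4* at 13.38 and 13.48 and *Cd3e* at 13.76 and 13.78 in the control and treated pools. Both CD8 genes were higher after ND αCD4 (*Cd8a* 9.67 and 10.39, *Cd8b1* 11.38 and 11.83), and their summed linear signal was 3478 and 4984. All 4 natural killer cell markers were also higher, although only *Klrd1* exceeded background, and only after ND αCD4 (7.34 and 8.19, at least 1.46-fold higher). The part of CD8 or natural killer cells in the values below was not tested. Of 5 measured markers of erythroid cells, which are rich in iron transporters, 2 were above background in the control pool and 3 in the treated pool, with summed linear signals of 998 and 1003. Among 5 markers of macrophages that recycle iron, only *Hmox1* was above background (8.42 and 8.35), and the defining genes *Spic*, *Vcam1* and *Cd163* were below it in both arrays. Of these 5 markers 0 had a ratio above 0, with a median of -0.146 and summed linear signals of 810 and 732. All 5 B cell markers and all 6 markers of macrophages and monocytes had ratios above 0, with summed linear signals of 2242 and 2419 for the first and 1473 and 1618 for the second. Their part was not tested either. Other lists covered dendritic cells, neutrophils, platelets, stroma and endothelium, and pancreas. Of 5 measured pancreas markers 2 were above background in the control pool and 3 in the treated pool. A value above background thus does not by itself show that the T cells express a gene. Outside the CD8, natural killer and iron-recycling lists, the median log2 ratio of the markers lay between -0.125 (neutrophils) and 0.108 (B cells).

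Promoter sequence from RefSeq (GRCm38.p6) was held for 6 of the 9 genes, in 10 windows that run from 250 bases before to 50 bases after an annotated start. Short motifs were searched in them and in all 32851 windows of that length. Short stretches of 30 bases are shown for *Tfrc*, the gene with the largest log2 ratio in size, and for the ferritin gene *Fth1* and the ferritin receptor gene *Ncoa4*, whose ratios were close to 0, with the matched letters in capitals, on the + strand, 5′ to 3′.

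*Tfrc*, chr16:32608897-32608926, letters of a cyclic AMP response element: tgcggaaggaagTGACGTagatccagaggg

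*Tfrc*, chr16:32608938-32608967, letters TATAA: gtggggccgagcTATAAgctttgggtggga

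*Ncoa4*, chr14:32165750-32165779, letters TATAA: tggccggtagggTATAAacctggccgtcga

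*Fth1*, chr19:9982660-9982689, letters TATAA: gcaggatcccgcTATAAgtgcggcccgctg

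The letters TGACGT, searched on both strands, were present in 7.51% of all windows and, among the iron genes, in the 2 overlapping windows of *Tfrc* alone, where they are the same site. Counted from the annotated starts of *Tfrc*, it begins at position -213 from 1 start and at position 13 from the other. TATAA, on both strands, was in 24.9% of windows and in 4 of the 10 windows of the iron genes. It began at position -27 from an annotated start in *Ncoa4*, near where a TATA box works, but at 26, inside the transcript, in *Fth1*. In *Tfrc* it began at -172 from 1 annotated start. The other annotated start of *Tfrc* lies before it, and it falls beyond the end of that window. The fourth match, on the opposite strand of another *Fth1* window at -123, is not shown. The letters CACGTG, to which Myc and its partner Max bind, were in 7.15% of windows, and the forkhead letters GTAAACA, recognized by Foxo factors, in 3.65%. Neither was found in a window of the iron genes. An IRE-like pattern on the transcribed strand, the loop CAGTGN with a C 6 bases before it, was in 10.4% of windows and in none of the 10. These windows stop 50 bases into the transcript, so most of each mRNA, where IRE lie, was outside them. A match of letters is not evidence that a factor binds there.

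The transferrin receptor gene *Tfrc* was the only iron gene that differed by 1.5-fold or more. Its signal was 10.10 in the control pool and 9.47 in the treated pool on the log2 scale, 1.55-fold lower after ND αCD4, or a log2 ratio (ND αCD4 minus isotype control, used throughout) of -0.63. Both values were well above background, by 2.46 and 1.91 on the log2 scale. By the same size rule 1.01% of detected genes were lower and 0.212% higher, and *Tfrc* ranked 117 from the lowest of 13222. It passed the 1.5-fold size by little. The proliferation gene *Mki67* moved in the same direction (10.22 and 8.94), and its part in the *Tfrc* value was not tested. In sorted pools fewer cells that express a gene and less RNA per cell cannot be told apart.

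A gene of a later step in the same route went the other way. *Slc11a2*, which encodes DMT1, the transporter that moves iron out of the endosome, had 9.37 in the control pool and 9.84 in the treated pool, 1.39-fold higher with a log2 ratio of 0.47. This is short of 1.5-fold, but it ranked 56 from the highest of all detected genes. Uptake and endosomal release were thus the roles in which the 2 iron genes farthest from 0 lay, on opposite sides. Both are also known for transcripts with an IRE behind the coding sequence. *Slc11a2* is made with and without that element, and the single value per gene does not separate these transcripts.

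**Figure D1:**
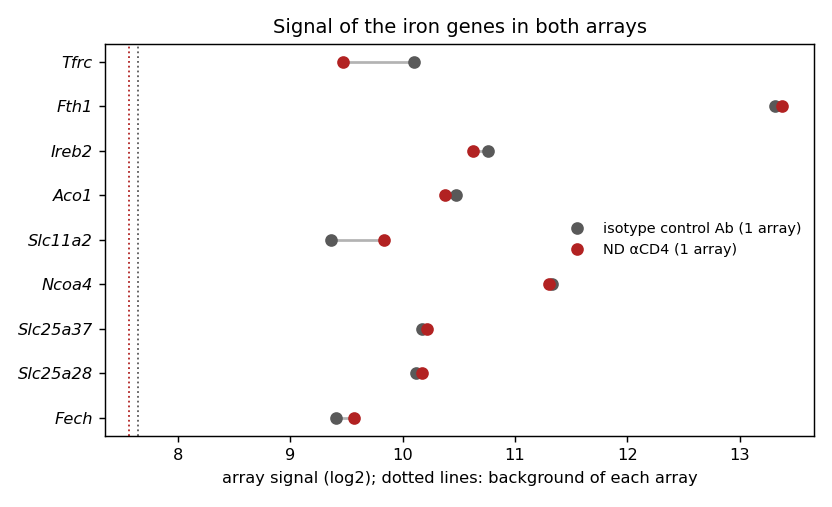
Array signal (log2, horizontal axis) of the 9 iron genes after isotype control Ab (gray) and after ND αCD4 (red). Every point is 1 array, and dotted lines mark the background. *Tfrc* goes from 10.10 to 9.47 and *Slc11a2* from 9.37 to 9.84, and the level of one gene cannot be set against that of another because each has its own probes.

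The genes of ferritin and of its turnover differed little between the arrays. *Fth1*, the ferritin heavy chain that oxidizes iron for storage, had 13.32 after isotype control Ab and 13.38 after ND αCD4, a log2 ratio of 0.06. Its partner, the light chain gene *Ftl1*, had 12.30 and 12.38, a ratio of 0.08. *Ncoa4*, the receptor that delivers ferritin to lysosomes when iron is needed, had 11.33 and 11.30 in its brighter probe set (ratio -0.03) and 11.17 and 11.13 in the other (ratio -0.04), so its probe sets differed little. The ratios of *Fth1*, *Ftl1* and *Ncoa4* were all smaller than 0.0929, the SD between the ratios that different probe sets give for 1 gene (550 genes with exactly 2 detected probe sets). *Herc2*, also listed under storage and ferritin turnover, was just above it at 0.099 (10.32 and 10.42). That SD covers disagreement between probes, not between mice. The RefSeq table lists pseudogenes of both *Fth1* and *Ncoa4*, and how far the probe sets pick up such copies is not known here.

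The genes of the iron regulatory proteins were both slightly lower. *Ireb2*, which encodes IRP2, the form degraded when iron is plentiful, had 10.76 in the control pool and 10.63 in the treated pool, a ratio of -0.14. *Aco1*, which encodes IRP1, an enzyme that binds RNA once it has lost its iron-sulfur cluster, had 10.48 and 10.38, a ratio of -0.10. *Fbxl5*, the iron-sensing subunit of the ligase that marks IRP2 for degradation, had 9.92 and 10.05, a ratio of 0.13. Of all detected genes 18.0% had a lower ratio than *Ireb2* and 25.6% a lower one than *Aco1*. The activity of IRP1 and IRP2 depends on protein state, which an mRNA array does not measure.

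Genes of mitochondrial iron import differed as little. *Slc25a37*, mitoferrin 1, had 10.18 and 10.22 after isotype control Ab and ND αCD4, and its paralog *Slc25a28*, mitoferrin 2, which serves cells outside the erythroid lineage, had 10.12 and 10.17. Their ratios of 0.04 and 0.06 were below the spread between probe sets. *Fech*, ferrochelatase, which places iron into protoporphyrin in the last step of heme synthesis, had 9.41 and 9.57. Its ratio of 0.16, a 1.11-fold higher level, exceeded that of 90.2% of detected genes. Of the 9 iron genes 4 had a ratio below 0 and 5 above 0, with a median of 0.04, while 52.7% of all detected genes had a ratio below 0 and their median was -0.01. The 1 gene at least 1.5-fold lower and 0 higher stand beside the shares of 1.01% and 0.212% given above, and nothing can be read from a count of 1.

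**Figure D2:**
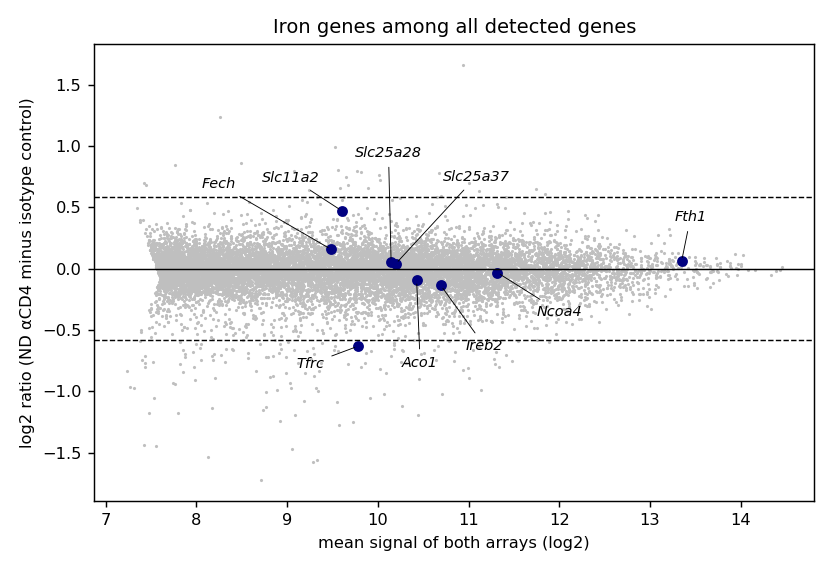
Log2 ratio (ND αCD4 minus isotype control, vertical axis) against the mean log2 signal of both arrays (horizontal axis) for 13222 detected genes (gray) and the 9 iron genes (blue), with 0 as a solid line and 1.5-fold as dashed lines. *Tfrc* at -0.63 is the only iron gene beyond a dashed line, and *Slc11a2* at 0.47 is the highest.

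The wider iron pathway was described by role through 12 lists of 94 genes in all, of which 86 had a single-symbol probe set and 73 were detected. Besides *Tfrc*, none of the 73 differed by 1.5-fold in either direction, a count near the shares of 1.01% lower and 0.212% higher over all detected genes. Leaving out the 9 iron genes above, 40 of 64 detected genes had a ratio below 0 and 24 above 0, with a median of -0.04 and a range from -0.36 to 0.28, beside 52.7% below 0 among all detected genes.

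Of the 10 other measured genes of transferrin uptake 5 were detected, with ratios from -0.19 to 0.12. *Snx3*, a sorting nexin that returns the transferrin receptor to the surface, had 11.97 in the control pool and 11.78 in the treated pool (ratio -0.19), *Mcoln1*, a lysosomal channel that releases iron, 11.29 and 11.41 (ratio 0.12), and *Trf*, transferrin itself, 8.42 and 8.34 (ratio -0.08). The second transferrin receptor *Tfr2* and the regulator *Hfe* were below background in both arrays. Among 4 other importers the highest ratio was that of *Slc39a8*, a metal transporter, at 0.09. *Lrp1*, a receptor that takes up heme bound to hemopexin, was at -0.05, and *Scara5*, a ferritin receptor, at 0.03. *Scara5* exceeded background only after ND αCD4 (7.63 and 7.66), so its ratio starts below background. The export genes showed no signal above background: none of 4, including ferroportin, *Slc40a1* (7.00 and 6.91), was detected. A probe set below background sets only a bound, so absence of the transcript is not shown.

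Of 8 detected genes of storage, ferritin turnover and cytosolic chaperones, 4 were below 0 and 4 above 0, with a median of 0.003. Without the 9 iron genes 3 were below 0 and 3 above 0, beside 52.7% below 0 among all detected genes. The 3 farthest from 0 were chaperone genes below it. *Bola2* and *Glrx3*, whose products form a complex that carries iron-sulfur clusters, had ratios of -0.23 (10.15 and 9.92) and -0.18 (8.99 and 8.81). *Pcbp1*, which delivers iron to ferritin, had 12.34 and 12.23, a ratio of -0.10. The chaperone gene *Pcbp2*, of the same list, lay on the other side of 0, with 13.36 and 13.40, a ratio of 0.04. In iron sensing, the ligase subunits *Skp1* and *Cul1* had ratios of 0.01 and -0.05. In the mitochondrial import list, *Abcb10*, which stabilizes mitoferrin 1, had a ratio of 0.05 and *Tmem14c*, a porphyrin transporter, -0.03.

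Heme synthesis genes lay on both sides of 0. *Alas1*, the rate-limiting first enzyme in most cells, had 10.33 in the control pool and 10.14 in the treated pool (ratio -0.20). *Alad*, the second enzyme, had 11.26 and 10.93 (ratio -0.33), the lowest of the list. *Fech*, at 0.16, was the highest of those above background in both arrays. The erythroid form *Alas2* exceeded background only after ND αCD4 (7.46 and 7.74), so its ratio of 0.28 starts below background, and measured from background it was at least 1.07-fold higher. Over the 8 detected genes other than *Fech*, 6 were below 0 and 2 above 0, with a median of -0.09. Among all detected genes 52.7% lay below 0, with a median of -0.01.

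Mitochondrial iron-sulfur cluster assembly was the role with the lowest median. Of 14 detected genes 11 had a ratio below 0 and 3 above 0, with a median of -0.16 against -0.01 for all detected genes, where 52.7% lay below 0. *Iscu*, the scaffold on which clusters are built, had 11.08 in the control pool and 10.72 in the treated pool (ratio -0.36, and -0.32 for the mean of its probe sets). *Hspa9*, a mitochondrial chaperone that takes clusters off the scaffold and also imports proteins, had 11.82 and 11.47 (ratio -0.35), and *Nubpl*, which supplies clusters to respiratory complex I, 8.25 and 7.89 (ratio -0.36). With the brightest probe set per gene the spread of the list was wide, from -0.36 to 0.09, and no gene in it reached 1.5-fold. The upper end depends on that choice: *Iba57*, of the same list, was at 0.08, and at 0.19 for the mean of its 2 probe sets. Cytosolic assembly genes were nearer to 0, with 6 of 8 below 0 and a median of -0.05. *Nubp1* and *Nubp2*, the cytosolic scaffold, had ratios of -0.20 and -0.12, and *Ciapin1*, an electron carrier of that route, -0.10. Whether these small differences go with fewer dividing cells in the pool was not tested.

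**Figure D3:**
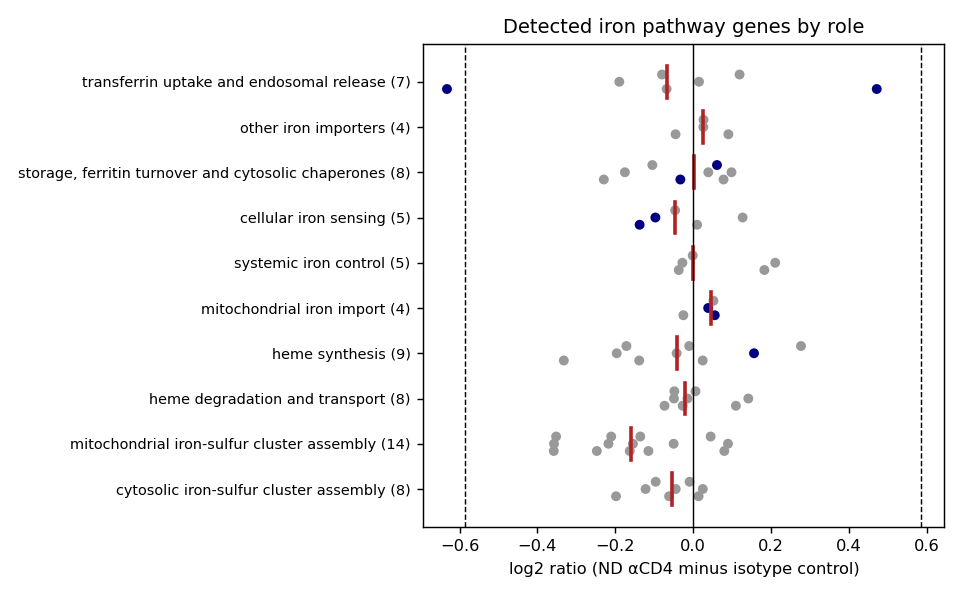
Log2 ratio (ND αCD4 minus isotype control, horizontal axis) of detected iron pathway genes by role, 1 point per gene, with the number of detected genes in parentheses, the 9 iron genes in blue, other genes in gray and the list median as a red bar. Mitochondrial iron-sulfur cluster assembly has the lowest median, at -0.16, and *Tfrc* is the only point beyond the dashed 1.5-fold lines. Vertical position within a row carries no meaning, and no exporter was detected.

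Of 6 detected genes known for an IRE in their mRNA, *Tfrc* alone was below 0 and 5 were above it, with a median of 0.18. Among all detected genes 52.7% lay below 0 and the median was -0.01. Leaving out the 9 iron genes, 3 of 3 were above 0 with a median of 0.27, one of them the weak gene *Alas2*. With so few genes, in a list chosen with earlier results known, no shared direction can be read from these counts. *Tfrc* was at -0.63 and *Slc11a2* at 0.47, both with the element behind the coding sequence. Among those with the element in front of it, *Fth1* and *Ftl1* were at 0.06 and 0.08 and *Epas1*, a transcription factor of the response to low oxygen, at 0.27 (8.35 and 8.62). For *Alas2* the value in the control pool was below background, and *Slc40a1* was below it in both. For elements in front of the coding sequence iron regulatory proteins are known to act on translation, which these arrays do not show.

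Rescaling the arrays left the direction of every iron gene in place. Under centring, lowess correction and quantile normalization *Tfrc* stayed between -0.63 and -0.62, past 1.5-fold each time, and *Slc11a2* stayed at 0.47, short of it. *Fth1* ranged from 0.06 to 0.09, *Slc25a37* from 0.04 to 0.06 and *Slc25a28* from 0.05 to 0.08, all under the spread between probe sets. *Aco1*, at -0.10 as deposited, ranged from -0.10 to -0.08 and so lay on either side of that spread.

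**Figure D4:**
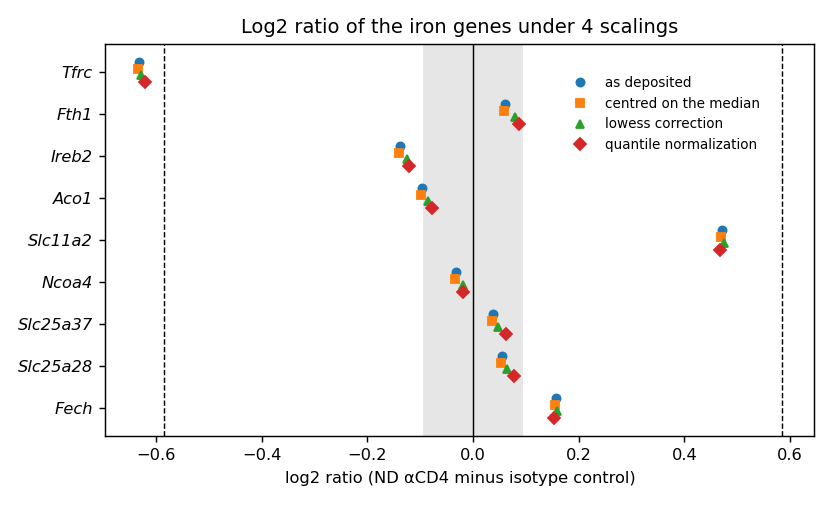
Log2 ratio (ND αCD4 minus isotype control, horizontal axis) of the 9 iron genes as deposited and under 3 other scalings of the same 2 arrays. The gray band is ± 0.0929, the SD between probe sets of 1 gene, and the dashed lines mark 1.5-fold. *Tfrc* lies beyond the dashed line under all 4 scalings.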

How the data were processed

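RNA of sorted CD3+CD4+ PLN T cells was hybridized to Affymetrix mouse gene ST arrays, 1 array per condition, each from pooled BDC mice. What the authors deposited are log2 values, 1 for each probe set and array. Affymetrix Expression Console is named in the submitters' processing notes, but for background correction, normalization and summary the sources used here name no method. Log2 as the scale rests on the span of the values and on nearly equal medians of the arrays. Array summaries can compress differences of weak probe sets. The probe set identifiers belong to an earlier array version than the paper names. Of 35557 probe sets, 21789 had 1 symbol in the platform annotation, 1621 several and 12147 none. Only the first were used, giving 19938 genes, 999 of them with several probe sets. List symbols were updated through the RefSeq table of GRCm38.p6, and all 9 iron genes matched it by gene identifier. No significance test was run.

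The iron genes, the 12 pathway lists and the 12 marker lists were chosen with earlier results of these data known, and the promoter motifs after the values were seen. Named are all 9 iron genes, up to 3 detected genes with the largest ratio in size per pathway list, counterparts of the iron genes (*Ftl1*, *Alas1*, *Fbxl5*, *Slc40a1*) and a few markers. *Tfr2*, *Hfe*, *Hamp*, *Herc2*, *Iba57*, *Pcbp2*, *Cd4* and *Mki67* were added after their values were seen, as were *Spic*, *Vcam1* and *Cd163*. Alternatives were the 3 scalings (lowess with fraction 0.3 and 3 iterations), a 2-fold size, a background at the 99th percentile, values floored at background, averaged probe sets, no filter, detection required in both arrays and, chosen after seeing the data, the other *Ncoa4* probe set. As a check of the steps only, size rule and ratios were run on simulated arrays with known changes well away from the rule. The noise of those arrays was set by hand, so the run does not measure the error of the real arrays. Tools were pandas 2.3.3, numpy 2.4.6, matplotlib 3.10.9 and statsmodels 0.14.6 under Python 3.11.15.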

Additional observations from a re-analysis of the deposited data

How the results depend on the processing

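Of 10 alternatives, 5 left every ratio of the iron genes as it was and 2 can move only that of *Ncoa4*. Among those 5, flooring at background moved no ratio because all 9 iron genes lay above background in both arrays. The rest of the 5 leave the ratios unchanged by construction. Under the 3 other scalings no iron gene changed the sign of its log2 ratio, and 27 of 27 values shifted by less than the SD between probe sets, which does not cover differences between mice. The median of the 9 iron genes ranged from 0.04 to 0.06. At a 2-fold size 0 iron genes and 0 pathway genes were lower, and 25 of all detected genes were lower and 2 higher. Under the other alternatives 1 iron gene, *Tfrc*, was lower and 0 were higher. Among all genes kept, those at least 1.5-fold lower numbered 106 to 151 and those higher 25 to 41. The upper ends, 151 and 41, are the counts with no filter, which include genes below background in both arrays. Signal over background limits the low genes: exporters could not be followed at all. No paired analysis was possible because each condition has 1 array.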

Other observations

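Of 7 genes of systemic iron control, which acts mainly in the liver and in erythroid precursors, 5 exceeded background in at least 1 array. That alone does not show that the T cells express them. The hepcidin gene *Hamp* was at 5.46 after isotype control Ab and 5.39 after ND αCD4, below background, and its paralog *Hamp2* at 9.09 and 9.28. *Hjv*, hemojuvelin, exceeded background only after ND αCD4 (7.42 and 7.63), and *Erfe*, erythroferrone, had 8.14 and 8.10. In heme breakdown and transport, *Blvrb*, a biliverdin reductase, had 9.70 and 9.84 (log2 ratio 0.14), *Abcg2*, a porphyrin exporter, 8.51 and 8.62 (0.11) and *Hmox1*, the inducible heme oxygenase, a log2 ratio of -0.07. The 8 detected genes of that list had a median of -0.02.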
